A study of Mus musculus with 12 samples.

Results

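Genes of the CCN family and targets of the coactivators YAP and TAZ were followed in forebrain endothelium with and without GPR124. They were Ccn1, Ccn2, Ccn3, Ccn4, Ccn5, Ankrd1, Amotl2, Ajuba and Lats2, 9 of the 49315 genes in the deposited tables. They were picked by name, with the symbols of GENCODE vM21, but the set was also chosen by a measured value, since Ccn4 was among the genes with the largest rise in Gpr124-/- against wild type. Values of the 9 genes in that comparison are therefore a description, without a test, as are those of Ccn4 in the other comparisons, which share libraries with it. RNA-seq libraries were made from CD31+ endothelial cells sorted from the forebrain of mouse embryos at E15.5, without CD45+ or CD140b+ cells, with 1 embryo per library and 4 libraries per genotype. The genotypes were wild type (embryos JE1, JE6, KE8 and LE6), Gpr124ΔC/ΔC (JE3, JE4, LE2 and LE5) and Gpr124-/- (KE4, ME1, ME4 and ME5). Both mutations are germline alleles present in every cell. The ΔC allele carries a V5 tag and a stop codon before the intracellular domain, and by the study's account less of this protein than of the wild-type protein reaches the cell surface, so the genotype differs from wild type in receptor amount as well as in its tail. No embryo labelled with K or M was Gpr124ΔC/ΔC and none labelled with J or L was Gpr124-/-, and what the letters stand for was not given.

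CCN proteins are secreted matricellular proteins that bind integrins, LRP receptors and matrix, and that modulate the response of endothelium to growth factors. YAP and TAZ (Wwtr1) are transcriptional coactivators that the Hippo kinases LATS1 and LATS2 hold in the cytoplasm, and that act at DNA through TEAD factors when cells are stretched, spread or growing. Ccn1, Ccn2 and Ankrd1 are widely used readouts of YAP/TAZ activity, and Amotl2, Ajuba and Lats2 are targets that also act on the Hippo cascade, whereas Ccn4 was first known as a gene induced by WNT1.

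TEAD factors bind the core letters CATTCC, and promoter windows of 5 of the 9 genes, with 6 start sites between them, were found in the RefSeq promoter table of GRCm38.p6. Ccn2, Ccn3, Ccn4 and Ccn5 were not matched. On either strand, the core was present in 5 of the 6 windows, and in at least 1 window of each of the 5 genes, against 14.7% of all 32851 windows of the same length of 300 bases. The SRF CArG box, searched on both strands, was present in none of the 6 windows and in 1.63% of all windows. Bases before the start site are shown for Ccn1 and Ankrd1, the classical readouts, and for Amotl2, a target that also acts on the Hippo cascade, with the core and its reverse complement in capitals. The Ccn1 stretch is chr3:145649986-145650235 on the minus strand, the Amotl2 stretch is chr9:102717554-102717803 on the plus strand, and the Ankrd1 stretch is chr19:36119845-36120094 on the minus strand.
Ccn1: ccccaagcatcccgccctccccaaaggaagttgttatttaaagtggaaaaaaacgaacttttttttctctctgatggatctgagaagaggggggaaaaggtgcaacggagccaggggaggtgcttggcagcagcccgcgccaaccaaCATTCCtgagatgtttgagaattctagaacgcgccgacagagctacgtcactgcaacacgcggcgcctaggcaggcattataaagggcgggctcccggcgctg
Amotl2: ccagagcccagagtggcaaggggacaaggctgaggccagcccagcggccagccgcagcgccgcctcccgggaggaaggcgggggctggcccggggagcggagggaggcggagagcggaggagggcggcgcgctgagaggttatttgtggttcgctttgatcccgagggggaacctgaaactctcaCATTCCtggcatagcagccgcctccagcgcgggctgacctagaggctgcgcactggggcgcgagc
Ankrd1: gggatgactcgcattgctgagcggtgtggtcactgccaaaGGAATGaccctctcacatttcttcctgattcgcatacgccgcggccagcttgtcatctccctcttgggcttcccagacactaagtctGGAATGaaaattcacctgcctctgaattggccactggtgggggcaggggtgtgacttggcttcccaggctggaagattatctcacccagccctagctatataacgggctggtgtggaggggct
Counted from the first base of the transcript, the core began at -103 in Ccn1 and at -65 in Amotl2, in the direction of the gene. In Ankrd1 it was read on the opposite strand at -210 and -123. Ajuba had a pair of copies at -186 and -164, and Lats2 had 1 copy at +5 on the opposite strand in the window of 1 of its start sites. A match of letters is not evidence of a bound site.

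Library depth was 17063091 to 22551163 counts on genes in wild type, 13877572 to 16033001 in Gpr124ΔC/ΔC and 14987249 to 22215659 in Gpr124-/-. Adgra2, the symbol of Gpr124 in the tables, had 38.6 ± 10.4 TPM (counts scaled by gene length and library total; SD, n = 4) in wild type, 43.4 ± 13.7 TPM in Gpr124ΔC/ΔC and 4.86 ± 0.988 TPM in Gpr124-/-. The 7 endothelial markers (Pecam1, Cdh5, Kdr, Tie1, Tek, Erg and Emcn) summed to between 2667 and 4328 TPM in every library, while 5 macrophage and leukocyte markers summed to at most 6.78 TPM. The wild-type library of KE8 stood apart, with 7 fibroblast markers summing to 69.5 TPM against 9.36 to 18.5 TPM in the other 11. The 3 erythroid markers Hba-a1, Hbb-bs and Alas2 summed to between 11412 and 33529 TPM in Gpr124-/- against 3724 to 6991 TPM in the other genotypes. In the J embryos JE6 and JE3 the RNA gene Gm23935 took 12.5% and 14.1% of all TPM, against at most 3.04% elsewhere, so TPM of other genes is slightly low there, while it took at most 0.325% of the counts on which fold changes rest.

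In wild-type endothelium the listed genes fell into levels that differed widely. Ccn1 was the most abundant with 212 ± 46.9 TPM (SD, n = 4), followed without overlap by Ccn2 with 82.9 ± 22.4 TPM. Ajuba (41.3 ± 8.88 TPM), Amotl2 (33.0 ± 1.10 TPM) and Lats2 (30.4 ± 7.07 TPM) came next, and neighbours among these 3 overlapped. Ccn3, Ccn4, Ccn5 and Ankrd1 were all at or under 5.25 TPM in wild type, and neighbours in that order overlapped as well. In Gpr124-/- the order was different, with Ccn2 and Ccn1 overlapping at the top (269 ± 49.2 and 251 ± 49.5 TPM), and with Ccn4 (12.9 ± 4.91 TPM) above Ccn3 (5.18 ± 0.764 TPM) without overlap. In such sorted bulk samples, fewer cells that express a gene and less RNA of it per cell cannot be told apart.

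**Figure D1:**
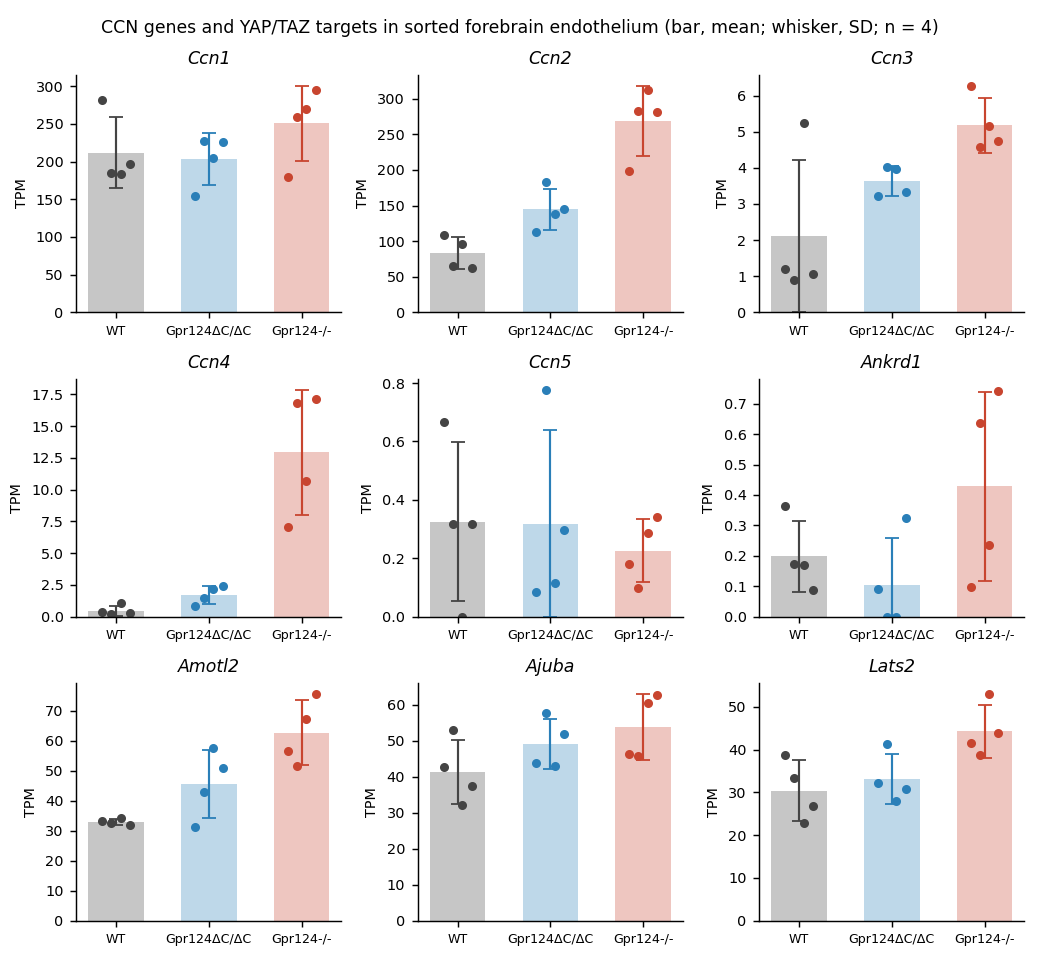
TPM of each of the 9 genes (vertical axis, linear from 0, with its own range in each panel) in the 12 libraries by genotype; points are embryos, bars are means and whiskers are SD over n = 4. Ccn2, Ccn4 and Amotl2 have all 4 Gpr124-/- points above all 4 wild-type points, and Ccn5 and Ankrd1 stay under 1 TPM in all libraries.

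A filter on low counts left 16637 genes, among them 7 of the 9 (all but Ccn5 and Ankrd1). Calls required a log2 fold change beyond 1 in either direction together with an adjusted p below 0.05, by the quasi-likelihood test of edgeR and Benjamini-Hochberg correction over those genes. Of Gpr124-/- against wild type, which served to choose the set, 5.67% of all genes were called higher and 4.21% lower, 10.5% were higher with an adjusted p under 0.05 at any fold, and 11.1% had all 4 Gpr124-/- libraries above all 4 wild-type libraries by CPM (counts scaled to library size, with TMM factors). Among the 7 genes, 4 (Ccn2, Ccn4, Amotl2 and Lats2) had such separate libraries, all 7 fold changes were positive, and their median log2 fold change was 0.88 against -0.01 over all genes. For Gpr124ΔC/ΔC against wild type the background was 0.89% called higher, 1.03% called lower, 1.85% higher at any fold and 5.27% with separate higher libraries. Of the 6 genes tested there, none was called by edgeR or by DESeq2, 2 (Ccn2 and Amotl2) had an unadjusted p under 0.05, the edgeR fit with the label letter as a block called 1 (Ccn3), and 1 (Ccn2) had separate libraries. With Ccn4 included the median was 0.37 against 0.01 over all genes. For Gpr124-/- against Gpr124ΔC/ΔC the background was 2.67% called higher, 1.94% called lower, 4.93% higher at any fold and 7.03% with separate higher libraries. Of the 6 genes tested there, none was called by edgeR or by DESeq2, 3 (Ccn2, Amotl2 and Lats2) had an unadjusted p under 0.05, and 2 of them (Ccn2 and Amotl2) had an adjusted p under 0.05 at folds below the threshold. With Ccn4 included, 5 of 7 (Ccn2, Ccn3, Ccn4, Amotl2 and Lats2) had all Gpr124-/- libraries above all Gpr124ΔC/ΔC libraries, and the median was 0.51 against -0.02. The comparisons share libraries pairwise, so their values stand side by side and are not independent.

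**Figure D2:**
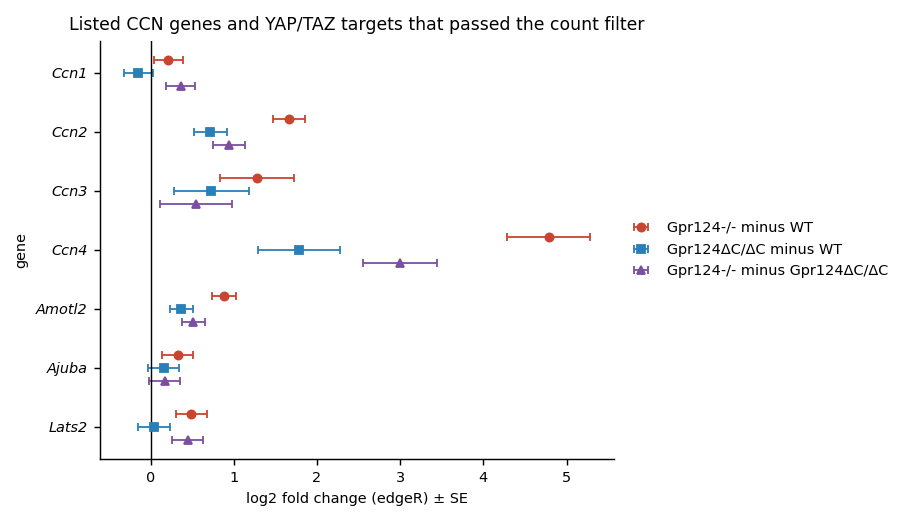
Log2 fold change with its standard error from edgeR (horizontal axis) of the 7 genes that passed the count filter (vertical axis) in the 3 comparisons. Ccn4 lies farthest right, at 4.79 in Gpr124-/- against wild type, and Ccn1, Ajuba and Lats2 lie within 0.5 of 0 in all 3 comparisons.

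Ccn4 (ENSMUSG00000005124, WISP1), a secreted protein known as a WNT-induced gene, lies at chr15:66891320-66923201 on the plus strand of GRCm38. It was at 0.349, 0.166, 1.04 and 0.303 TPM in the wild-type embryos JE1, JE6, KE8 and LE6, from 15, 6, 38 and 11 counts. In the Gpr124ΔC/ΔC embryos JE3, JE4, LE2 and LE5 it was at 0.854, 1.43, 2.19 and 2.39 TPM, from 29, 37, 54 and 69 counts. In the Gpr124-/- embryos KE4, ME1, ME4 and ME5 it was at 7.05, 16.9, 10.7 and 17.1 TPM, from 225, 496, 428 and 576 counts. All Gpr124-/- libraries were thus above all others, and Gpr124ΔC/ΔC lay between the other genotypes except that JE3 was below the wild-type embryo KE8. By TPM means, Ccn4 was 27.9-fold higher in Gpr124-/- than in wild type and 7.54-fold higher than in Gpr124ΔC/ΔC, with log2 fold changes of 4.79 (SE 0.50) and 2.999 (SE 0.45). Without KE8 the wild-type mean was 0.273 TPM and the first of these log2 values became 5.51. In Gpr124ΔC/ΔC against wild type the log2 fold change was 1.79 (SE 0.49). It was 2.50 without KE8 and 2.35 with the label letter as a block, and it is left untested, since the wild-type libraries took part in the choice of the gene. With the letter term the difference of Gpr124-/- was 2.72 against wild type and 0.37 against Gpr124ΔC/ΔC. In that fit the mutants are linked only through the wild-type embryos. Only Gpr124-/- embryos carry the letter M, so the fit rests on KE4 alone for Gpr124-/-, set against KE8. This holds for every value of Gpr124-/- with the letter term. Within letters, the log2 CPM of Ccn4 differed by 1.91 (J) and 2.59 (L) between Gpr124ΔC/ΔC and wild type, and by 2.65 (K, 1 embryo each) between Gpr124-/- and wild type.

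Against wild type, the 7 tested WNT/beta-catenin targets lay opposite to Ccn4 in both mutants. Of these (Axin2, Lef1, Tcf7, Nkd1, Notum, Sp5 and Znrf3), 6 were called lower and none higher in Gpr124-/- against wild type, beside 4.21% of all genes called lower, among them Notum at -3.88, Nkd1 at -3.77 and Axin2 at -1.56 on the log2 scale (adjusted p = 1.45e-05, 2.79e-05 and 9.96e-06, edgeR). In Gpr124ΔC/ΔC against wild type 4 fell, Axin2, Nkd1, Notum and Sp5, with log2 fold changes from -4.41 to -1.07, beside 1.03% of all genes. With the letter term, Gpr124-/- against wild type rests on KE4 against KE8 alone. There the 6 genes stayed negative, from -3.35 (Notum) to -0.58 (Znrf3). In Gpr124ΔC/ΔC against wild type 3 of the 4 (Axin2, Nkd1 and Notum) were still called with that term. Sp5 in Gpr124ΔC/ΔC held in 4 of the 12 fits with 1 library left out, Axin2 there fell short without JE4 (-0.995), and Znrf3 in Gpr124-/- was lost without JE6 or ME5. Rnf43, below the count filter with 1 to 11 counts per library, averaged 0.0927 TPM in wild type, 0.129 TPM in Gpr124ΔC/ΔC and 0.232 TPM in Gpr124-/-, with overlapping libraries. Between the mutants none was called by edgeR, 4 had an unadjusted p under 0.05, and 1 of the 7, Lef1, had a lower level in Gpr124-/- with an adjusted p of 0.00715 (edgeR) at a log2 fold change of -0.53.

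Ccn3 (NOV, ENSMUSG00000037362), a CCN member that binds integrins and Notch1, lies at chr15:54745702-54754039 on the plus strand. It was at 1.21, 0.905, 5.25 and 1.06 TPM in the wild-type embryos in the order above. In Gpr124ΔC/ΔC it was at 3.23, 4.02, 3.97 and 3.33 TPM, and in Gpr124-/- at 6.27, 4.57, 5.15 and 4.74 TPM. KE8 was the only wild-type library in the range of the mutants, and the other 3 were below all 8 mutant libraries. Relative to wild type, its log2 fold change was 1.28 (SE 0.44) in Gpr124-/- and 0.73 (SE 0.45) in Gpr124ΔC/ΔC (adjusted p = 0.547, edgeR). Without KE8 the former was 2.23, and with the letter term it was 0.21. The latter was 1.67 without KE8 (adjusted p = 0.000749, edgeR), while over the other alternatives except the letter term (1.70, adjusted p = 0.000356, edgeR) it did not pass. Between the mutants the log2 fold change was 0.55 (SE 0.43, adjusted p = 0.484, edgeR), although their libraries did not overlap, and with the letter term it was -1.49.

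KE8 was also the wild-type library with the highest Ccn4, and the only library with a high sum of fibroblast markers. Dcn, a proteoglycan of fibroblasts, was at 37.9 TPM in KE8 against 5.35 to 5.91 TPM in the other wild-type libraries, and Lum was at 11.5 against 0.368 to 1.67 TPM. None of the 7 fibroblast markers was at 0 in any library. The mutant libraries, in which Ccn3 and Ccn4 were higher, had fibroblast sums of 9.36 to 18.5 TPM, about those of the other 3 wild-type libraries (13.2 to 14.8 TPM). Without KE8, wild-type Ccn3 was 1.06 ± 0.151 TPM and Ccn4 was 0.273 ± 0.0951 TPM (SD, n = 3). The part of the fibroblast markers in the KE8 values was not tested.

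**Figure D3:**
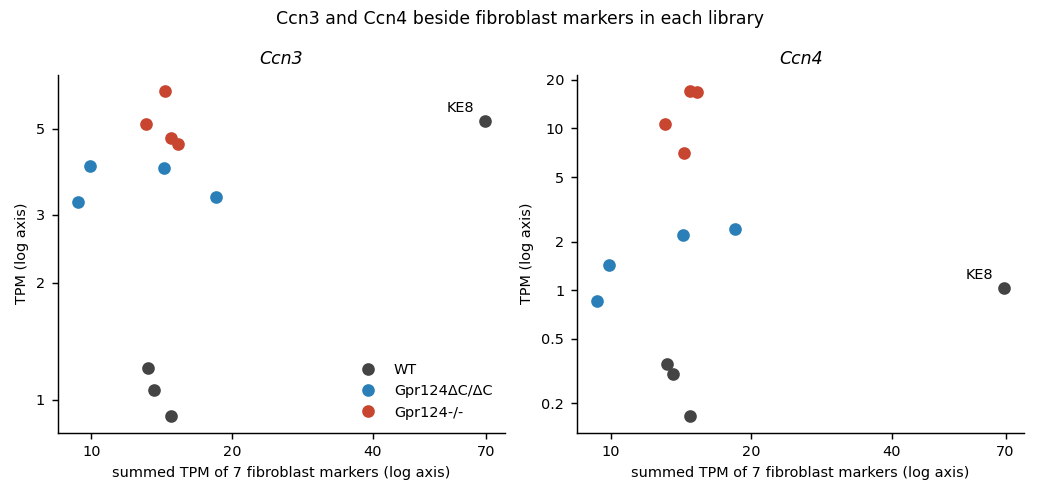
TPM of Ccn3 (left) and Ccn4 (right) against the summed TPM of 7 fibroblast markers in each of the 12 libraries, both axes logarithmic; each point is 1 embryo, coloured by genotype. KE8 lies far to the right at 69.5 TPM, while the mutants and the other wild-type libraries share a range of 9.36 to 18.5 TPM.

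Ccn1 and Ccn2, both secreted proteins used as readouts of YAP/TAZ, differed in how they varied with genotype. Ccn2 (CTGF, ENSMUSG00000019997) lies at chr10:24595442-24598683 on the plus strand, where it overlaps Gm15270 on the other strand (40 to 101 counts per library against 1176 to 6482 for Ccn2), and the strandedness of counting was not given in the sources used here. It was at 108, 65.6, 95.6 and 62.5 TPM in wild type, at 112, 183, 138 and 146 TPM in Gpr124ΔC/ΔC and at 198, 282, 313 and 282 TPM in Gpr124-/-. The 3 genotypes did not overlap, with wild type lowest and Gpr124-/- highest. Against wild type the log2 fold change was 1.66 (SE 0.20) in Gpr124-/- (1.01 with the letter term), and 0.72 (SE 0.19, adjusted p = 0.06004, edgeR) in Gpr124ΔC/ΔC, the latter with an adjusted p under 0.05 in 5 of 21 alternatives (range 0.00314 to 0.192). Gpr124-/- was above Gpr124ΔC/ΔC by 0.94 (SE 0.19, adjusted p = 0.00985, edgeR), a 1.86-fold difference of TPM means that passed at any fold in 19 of 21 alternatives and with each library left out. The exceptions were limma on log2(TPM + 1) without a filter (adjusted p = 0.0531) and the letter term (0.16), which rests on KE4 alone for Gpr124-/-. Within letters, the log2 CPM of Ccn2 was higher in Gpr124ΔC/ΔC than in wild type by 0.72 (J) and 1.08 (L). It was higher in Gpr124-/- by 1.01 (K, 1 embryo each), from the same pair as the letter-term value against wild type.

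Ccn1 (CYR61, ENSMUSG00000028195, chr3:145646976-145649981, minus strand) was at 281, 185, 183 and 197 TPM in wild type. It was at 154, 228, 204 and 226 TPM in Gpr124ΔC/ΔC and at 180, 259, 270 and 295 TPM in Gpr124-/-. All 3 genotypes overlapped. The log2 fold change was 0.21 (SE 0.18) in Gpr124-/- against wild type, -0.15 (SE 0.18, adjusted p = 0.848, edgeR) in Gpr124ΔC/ΔC against wild type and 0.36 (SE 0.18, adjusted p = 0.248, edgeR) between the mutants.

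Dividing Ccn2 by Ccn1 within each library, a ratio chosen after the values were seen and given without a test, separated the genotypes. The ratio of their TPM was 0.384, 0.354, 0.522 and 0.318 in wild type, 0.728, 0.802, 0.674 and 0.645 in Gpr124ΔC/ΔC, and 1.10, 1.09, 1.16 and 0.956 in Gpr124-/-. The means were 0.395 ± 0.0893, 0.712 ± 0.0691 and 1.08 ± 0.0862 (SD, n = 4). Over the 12 libraries, with the genotype means taken out, log2 CPM of Ccn1 and Ccn2 had a Pearson r of 0.76, a description over libraries that share their embryo, sort and depth.

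**Figure D4:**
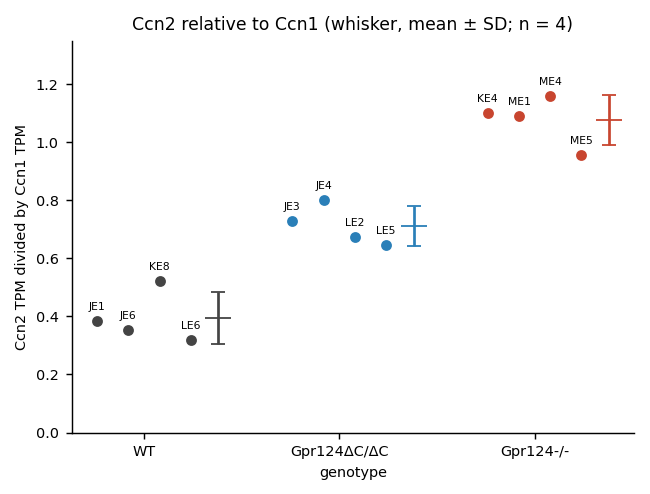
Ratio of Ccn2 TPM to Ccn1 TPM (vertical axis, linear from 0) in each of the 12 embryos by genotype; points are embryos with their labels, and whiskers to the right show the mean ± SD over n = 4. Wild type lies from 0.318 to 0.522, Gpr124ΔC/ΔC from 0.645 to 0.802 and Gpr124-/- from 0.956 to 1.16.

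Ccn5 and Ankrd1 were at the edge of detection. Ccn5 (ENSMUSG00000027656, chr2:163820861-163833146), a CCN protein without the C-terminal cystine knot of the others, had 10, 4, 0 and 4 counts in wild type, 1, 7, 1 and 3 in Gpr124ΔC/ΔC and 2, 1, 4 and 4 in Gpr124-/-. Ankrd1 (ENSMUSG00000024803, chr19:36111965-36119844), an ankyrin repeat protein, had 5, 2, 2 and 1 counts in wild type, 1, 0, 0 and 3 in Gpr124ΔC/ΔC and 1, 6, 3 and 8 in Gpr124-/-. Neither gene passed the count filter, the genotypes overlapped, and no difference was detectable at this depth. In the libraries at 0, a count of 0 allows up to 3 counts, which is 0.235 TPM for Ccn5 in KE8, and 0.363 and 0.380 TPM for Ankrd1 in JE4 and LE2. Ccn6, the remaining family member, had at most 8 counts in any library.

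Amotl2, Ajuba and Lats2 are YAP/TAZ targets whose products act on the Hippo cascade. Amotl2 (angiomotin-like 2, a junction protein that binds YAP, ENSMUSG00000032531, chr9:102716672-102733418, plus strand) was at 33.2, 32.5, 34.4 and 31.8 TPM in wild type, where it varied least. It was at 31.3, 42.8, 57.5 and 51.0 TPM in Gpr124ΔC/ΔC and at 56.4, 51.4, 67.2 and 75.5 TPM in Gpr124-/-. Gpr124-/- was above wild type in all libraries, with a log2 fold change of 0.88 (SE 0.14), and Gpr124ΔC/ΔC overlapped wild type through JE3 alone and had 0.37 (SE 0.14, adjusted p = 0.217, edgeR). By TPM, the Gpr124-/- embryos KE4 and ME1 were below the Gpr124ΔC/ΔC embryo LE2, whereas by CPM the mutants did not overlap. Between the mutants the log2 fold change was 0.51 (SE 0.14, adjusted p = 0.0408, edgeR). This passed at any fold in 7 of 21 alternatives, with adjusted p from 0.0157 to 0.898, and of the 12 fits with 1 library left out it passed in the 4 without KE8, LE2, KE4 or ME1.

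Ajuba (a LIM protein that restrains LATS kinases, ENSMUSG00000022178, chr14:54567469-54577661, minus strand) was at 42.6, 53.0, 32.2 and 37.5 TPM in wild type. It was at 43.9, 57.7, 42.9 and 51.8 TPM in Gpr124ΔC/ΔC and at 46.3, 45.6, 60.5 and 62.7 TPM in Gpr124-/-. All genotypes overlapped, with log2 fold changes of 0.32 (SE 0.19), 0.15 (SE 0.19, adjusted p = 0.854, edgeR) and 0.17 (SE 0.19, adjusted p = 0.630, edgeR) in the order Gpr124-/- against wild type, Gpr124ΔC/ΔC against wild type and between the mutants.

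Lats2 (a kinase that phosphorylates YAP and TAZ, ENSMUSG00000021959) spans chr14:57642077-57758388 on the minus strand in the files, which overlaps Xpo4 on the same strand (503 to 882 counts per library), so its counts are less certain. It was at 38.8, 33.3, 22.8 and 26.7 TPM in wild type, at 32.3, 41.4, 27.9 and 30.8 TPM in Gpr124ΔC/ΔC and at 41.6, 38.6, 52.9 and 43.9 TPM in Gpr124-/-. By TPM wild type and Gpr124ΔC/ΔC overlapped over most of their ranges and Gpr124-/- overlapped them through ME1 alone, while by CPM all Gpr124-/- libraries (101 to 129) were above the highest of wild type (100.1) and of Gpr124ΔC/ΔC (99.6). The log2 fold change was 0.49 (SE 0.19) in Gpr124-/- against wild type, 0.04 (SE 0.19, adjusted p = 0.976, edgeR) in Gpr124ΔC/ΔC against wild type and 0.45 (SE 0.19, adjusted p = 0.174, edgeR) between the mutants. Its genotype-centred log2 CPM had a Pearson r of 0.81 with that of Ajuba, the highest of the 21 pairs among the 7 genes, and of -0.58 with that of Ccn4, the lowest.

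The genes most like Ccn4, Ccn1 and Ccn2 by the same measure were taken among 9988 tested genes whose CPM averaged 8 or more. For Ccn4 they were Kdelr2 (r = 0.93), Cdkn2aipnl (0.89) and Gtf2h4 (0.87). For Ccn1 they were Endod1 (0.89), Sirpa (0.88) and Adipor1 (0.87), and for Ccn2 they were Dnajc3 (0.84), Nsmce2 (0.82) and Edn1 (0.80). Each r is the highest of many over 12 libraries and is given as a description.

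Other YAP/TAZ targets changed in both directions. Of 17 listed genes, all measured, 5 were called higher and 1 was called lower in Gpr124-/- than in wild type, beside the 5.67% and 4.21% of all genes given above, and the median log2 fold change was 0.57. Those higher were Nuak2, a kinase related to AMPK (log2 fold change 2.80, SE 0.31), Ccdc80, a matrix protein (2.15, SE 0.30), Igfbp3, which binds insulin-like growth factors (2.01, SE 0.52), Crim1, which binds BMP ligands (1.26, SE 0.28) and Arhgef17, a guanine nucleotide exchange factor (1.004, SE 0.22), with adjusted p of 3.31e-05, 0.000256, 0.0148, 0.00609 and 0.00633 (edgeR). Foxf2, a forkhead factor of brain endothelium and pericytes, fell by 1.56 on the log2 scale (SE 0.29, adjusted p = 0.00199, edgeR). With the letter term, which here rests on KE4 against KE8 alone, Igfbp3 was at 1.98, Arhgef17 at 1.25 and Nuak2 at 1.85. Crim1, Foxf2 and Ccdc80 were then at 0.96, -0.89 and 1.66. Arhgef17 fell under the fold threshold without any one of KE8, LE6, LE2, LE5, ME4 or ME5 (lowest 0.87). Without the fold threshold 7 were higher in this comparison, beside 10.5% of all genes, and 4 were lower, for which the share of all genes was not counted. In Gpr124ΔC/ΔC against wild type 1 of the 17 was called, beside 0.89% of all genes called higher, Ccdc80, which was higher by 1.25 (SE 0.30, adjusted p = 0.0352, edgeR), and the median was -0.27. It was not called without any one of the wild-type embryos, LE2, ME1 or ME4, which are 7 of the 12 fits with 1 library left out. Between the mutants 1 was called, beside 2.67% called higher, and the median was 0.51. The called gene was Nuak2, higher in Gpr124-/- by 2.20 (SE 0.30, adjusted p = 0.000999, edgeR). It was at 1.36 with the letter term, which rests on KE4 alone for Gpr124-/-. Nuak2 was at 1.21, 0.897, 1.23 and 1.51 TPM in wild type, at 1.12, 1.80, 2.51 and 2.48 TPM in Gpr124ΔC/ΔC and at 4.59, 10.2, 8.17 and 11.5 TPM in Gpr124-/-. The Gpr124-/- libraries were all above the rest, and the other genotypes overlapped.

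**Figure D5:**
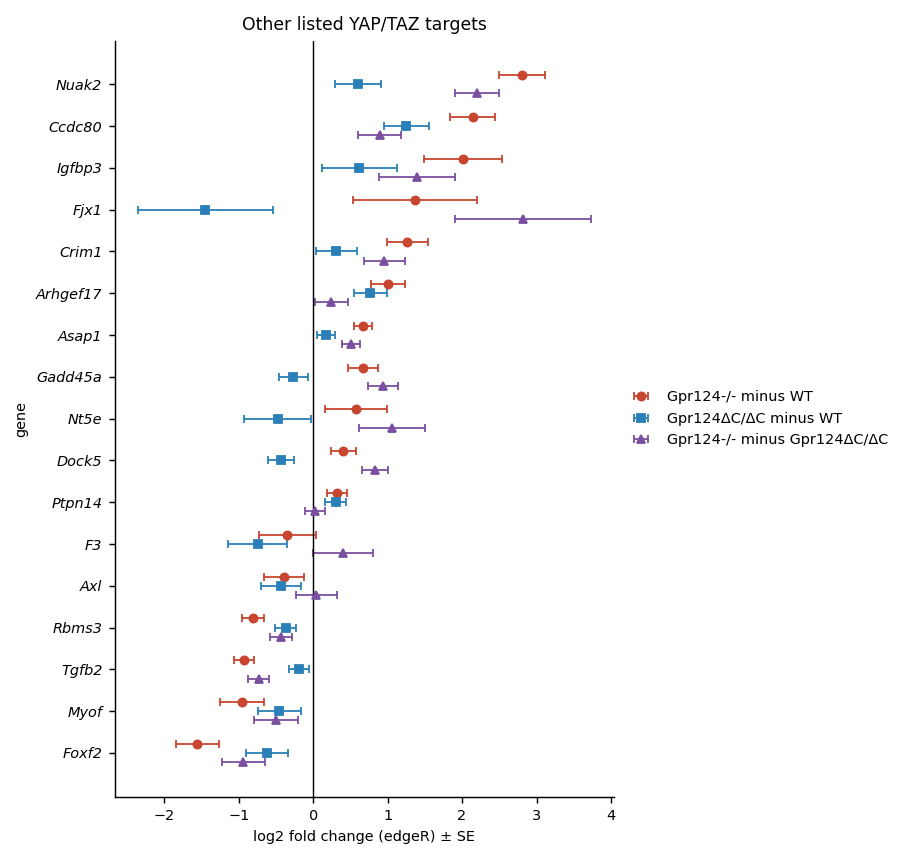
Log2 fold change with its standard error from edgeR (horizontal axis) of the 17 other listed YAP/TAZ targets (vertical axis, ordered by Gpr124-/- against wild type) in the 3 comparisons. Nuak2 lies at the top with 2.80 and Foxf2 at the bottom with -1.56 in Gpr124-/- against wild type.

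Of 24 listed components of the Hippo cascade 23 passed the count filter, and 1 was called in each direction in Gpr124-/- against wild type, beside the 5.67% and 4.21% of all genes. There Taok3, a kinase upstream of the cascade, was called higher (log2 fold change 1.26, adjusted p = 0.00114, edgeR) and Frmd6, a FERM protein upstream of it, lower (-1.10, adjusted p = 0.000176, edgeR). With the letter term, which here rests on KE4 against KE8 alone, Taok3 was at 0.46 and Frmd6 at -0.999. Taok3 was also called higher in Gpr124-/- than in Gpr124ΔC/ΔC (1.15, adjusted p = 0.00596, edgeR), though not without ME5 (0.99). It was at 0.39 there with the letter term. No component was called in Gpr124ΔC/ΔC against wild type by edgeR, with 1 at an unadjusted p under 0.05. The coactivators were named after their values were seen. TAZ (Wwtr1) was far more abundant than Yap1, with 362 ± 50.02 against 11.2 ± 4.43 TPM in wild type (SD, n = 4). In Gpr124-/- against wild type Wwtr1 was lower, at -0.59 on the log2 scale (adjusted p = 0.00319, edgeR), and Yap1 was at -0.09 (adjusted p = 0.894, edgeR). Wwtr1 was 1 of 4 components lower there at any fold with an adjusted p under 0.05 (with Frmd6, Amot and Tead2), and 2 (Taok3 and Stk4) were higher. Between the mutants Wwtr1 was at -0.41 (adjusted p = 0.0499, edgeR), with overlapping libraries.

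Among 8 CCN receptors 2 were called higher in Gpr124-/- against wild type, beside 5.67% of all genes, the integrin subunits Itgb3 (log2 fold change 2.12, adjusted p = 0.00356, edgeR) and Itga6 (1.48, adjusted p = 0.000487, edgeR), and Itgb3 was also higher than in Gpr124ΔC/ΔC (1.55, adjusted p = 0.0396, edgeR), a call that held in 4 of the 12 fits with 1 library left out. The Itgb3 libraries of Gpr124-/- overlapped those of both other genotypes. With the letter term, which rests on KE4 alone for Gpr124-/-, Itga6 was at 1.43 and Itgb3 at 0.54 against wild type. Itgb3 was then at 0.16 between the mutants. MRTF and SRF are actin-regulated factors that share targets with YAP. Of 11 of their targets that passed the count filter, 3 were called higher in Gpr124-/- against wild type, again beside 5.67%: Fhl2, Tpm2 and Myl9 (3.09, 1.45 and 1.43). With the letter term, resting on KE4 against KE8, Fhl2 was at 2.67, Tpm2 at -0.0628 and Myl9 at 0.36. Fhl2, a LIM domain coactivator, was at 4.63 ± 0.782 TPM in wild type, 11.2 ± 1.70 TPM in Gpr124ΔC/ΔC and 40.4 ± 12.6 TPM in Gpr124-/- (SD, n = 4). It was called in all 3 comparisons, with log2 fold changes of 1.199 in Gpr124ΔC/ΔC against wild type (adjusted p = 0.0215, edgeR) and 1.89 between the mutants (adjusted p = 0.000980, edgeR). The former was not called without any one of JE1, KE8, LE6, JE3 or JE4, and the latter was at 1.57 with the letter term. Tpm2 was also higher in Gpr124-/- than in Gpr124ΔC/ΔC (1.84, adjusted p = 0.00793, edgeR), but was at 0.22 with the letter term. Of 14 immediate early genes, which share rapid induction with Ccn1 and Ccn2 and can respond to cell dissociation, 1 was called higher in Gpr124-/- against wild type, Fosl2 (1.24, adjusted p = 0.00108, edgeR), beside 5.67% of all genes. At any fold 4 of the 14 were higher with an adjusted p under 0.05 there, beside 10.5% of all genes. By the same rule 1 was lower, for which the share of all genes was not counted. Of the 14 fold changes 12 were positive, and the median was 0.45. None was called by edgeR in the other comparisons, where 2 in Gpr124ΔC/ΔC against wild type and 6 between the mutants had an unadjusted p under 0.05.

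Markers of other cells moved with the genotype in part. The 3 erythroid markers Hba-a1, Hbb-bs and Alas2 were called higher in Gpr124-/- against wild type and against Gpr124ΔC/ΔC. With the letter term, which rests on KE4 alone for Gpr124-/-, their log2 fold changes were 1.16 to 1.17 against wild type. Between the mutants they were then 1.26 to 1.47. Of 7 pericyte and smooth muscle markers, Abcc9 was higher (log2 fold change 2.66) and Rgs5 lower (-1.47) in Gpr124-/- against wild type, and their summed level was 19.9 to 40.1 TPM in wild type, 10.3 to 22.4 TPM in Gpr124ΔC/ΔC and 25.0 to 33.1 TPM in Gpr124-/-. Between the mutants, Abcc9 (2.75) and Kcnj8 (1.43) were called higher in Gpr124-/-. Kcnj8 was not called without any one of JE3, LE2, LE5, ME1, ME4 or ME5, and Rgs5 was not called without KE8 or ME1. With the letter term Abcc9 was at 1.42 and Rgs5 at -1.21 against wild type. Between the mutants Abcc9 was then at 1.04 and Kcnj8 at 0.14. Of 6 fibroblast markers that passed the count filter, Pdgfra was called lower in Gpr124-/- against wild type (-2.55, and -1.69 without KE8). KE8 had 1.67 TPM of it against a mean of 0.374 TPM in the other 3 wild-type libraries. Of 4 neuron markers Stmn2 was called higher (1.25, and 0.54 with the letter term). None of 4 neural progenitor markers was called by edgeR in any comparison (1 against wild type in each mutant and 2 between the mutants had an unadjusted p under 0.05). Emcn, a sialomucin of capillary and venous endothelium, was the only endothelial marker called in Gpr124-/- against wild type (1.26). At smaller folds with an adjusted p under 0.05 by edgeR, Cdh5 (0.74) and Pecam1 (0.54) were higher, and Tek (-0.73) and Erg (-0.41) were lower. Kdr and Tie1 did not pass. Summed neuron markers were at 47.6 to 120 TPM in wild type, 71.97 to 137 TPM in Gpr124ΔC/ΔC and 99.8 to 128 TPM in Gpr124-/-. None of the pericyte, fibroblast, neuron or erythroid markers was at 0 in any library. Their part in the values of Ccn2, Ccn4 and Amotl2 was not tested.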

How the data were processed

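RNA of CD31+ cells sorted from the forebrain of 12 mouse embryos was isolated with the PicoPure kit, amplified by SMART-Seq, selected for poly(A) and sequenced paired-end on an Illumina HiSeq instrument. The authors deposited raw counts per Ensembl gene in each library and a table of TPM values, which are the deposited counts per unit of gene length, rescaled so that libraries share a total. The submitters' processing notes name bcl2fastq 2.17 and mm10. The aligner, counting program and strandedness were not given in the sources used here. TPM recomputed from the counts and lengths differed by at most 0.168% for genes with at least 10 counts. Of 49315 gene identifiers, 49056 were found in GENCODE vM21, which gave the symbols and, like the files, uses GRCm38.

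The test was the quasi-likelihood fit of edgeR 4.0.16 in R 4.3.3, on the 12 libraries together, with genotype as the term. It used TMM factors (0.946 to 1.04) and the filterByExpr filter (minimum count 10, minimum total 15), with Benjamini-Hochberg adjustment over 16637 genes. Fold changes use counts, and levels of genes are given as TPM. Alternatives were upper-quartile factors, no count filter, a mean of at least 50 counts, the label letter as a term, DESeq2 1.42.0, only the 2 compared genotypes, no fold threshold, limma 3.58.1 on log2(TPM + 1) and log2(TPM + 0.1) for a mean of at least 1 TPM, limma without that filter, and each library left out in turn. Data were also simulated for Gpr124ΔC/ΔC against wild type, with the same spread between libraries for every gene. Recovery was scored by adjusted p under 0.05 at any fold, so it does not describe the calls above. By this score the edgeR model recovered 100 of 100 genes changed 4-fold and 62 of 100 changed 2-fold. It also picked 6 unchanged genes among 16494 tested. The likeness of genes used log2 CPM with a prior count of 2. Tables and plots were made in Python 3.11.15 with pandas 2.3.3, numpy 2.4.6 and matplotlib 3.10.9.

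The genes and lists were chosen with earlier results of these data known. The named genes are the 9 listed genes, Adgra2, the genes of each list that were called in a comparison (at most 6 in a direction) and the 3 genes most like Ccn4, Ccn1 and Ccn2. Yap1, Wwtr1, Lef1, Rnf43 and the Ccn2 to Ccn1 ratio were added after their values were seen. Ccn4 was planned as tested in Gpr124ΔC/ΔC against wild type, and was left untested there because that comparison shares the libraries that helped to choose it. One gene of the erythroid marker list is not reported here and was left out of its sum. Each library is 1 embryo, so the spread over n = 4 includes differences between embryos, sorts and libraries, and intervals were not computed for counts beyond the limit of 3 counts that a count of 0 allows, which covers counting error only.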

Additional observations from a re-analysis of the deposited data

Results flagged for a closer look

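Of 21 groups of 4 libraries tested (7 genes in 3 genotypes) for a library far from the others, 2 had one whose gap to its neighbour exceeded Dixon's critical share of the range of its group, and chance gives about 1 in 20. Ccn3 in wild type was at 5.25 TPM in KE8, with a gap of 0.930 of the range. KE8 also had 69.5 TPM of summed fibroblast markers, whose part in this value was not tested. Ccn1 in wild type was at 281 TPM in JE1, with a gap of 0.863 of the range, and without JE1 the log2 fold change of Ccn1 in Gpr124-/- against wild type was 0.37 in place of 0.21.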

How the results depend on the processing

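Replicate numbers only follow the order of the samples and pair nothing, so the letter of the embryo label was the block that was run. Of the listed genes other than Ccn4, which is left untested, 0 were called in Gpr124ΔC/ΔC against wild type, a count that was 1 (Ccn3) under a fit that adds the label letter and 0 to 1 with single libraries left out (Ccn3, without KE8). Between the mutants 0 of them were called, 2 without the fold threshold, and 0 to 1 with single libraries left out (Ccn2, without JE4 or KE4). Of the other 17 YAP/TAZ targets, the 6 calls in Gpr124-/- against wild type became 11 without the fold threshold, and 5 to 8 with single libraries left out. The 1 call in Gpr124ΔC/ΔC against wild type became 0 with only the 2 compared genotypes and in each of the 3 limma fits, and 0 to 1 with single libraries left out. The 1 call between the mutants became 2 with DESeq2 and 5 without the fold threshold, and 1 to 4 with single libraries left out (4 without JE3 or KE4, 3 without LE2). Counts with the letter term are left out for Gpr124-/-, where that fit rests on KE4 alone. The causes were not tested.

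Some differences changed sign, and that of Ccn3 was not small. With the letter term, Ccn3 between the mutants was -1.49 in place of 0.55. Ccn1 in Gpr124-/- against wild type was then -0.0694, and Lats2 in Gpr124ΔC/ΔC against wild type was -0.00244 (log2 fold changes). With single libraries left out, Lats2 in the last comparison ranged from -0.0918 (without KE8) to 0.17 (without JE1) and was -0.0413 without LE6, -0.0171 without JE3 and -0.065 without JE4. Ccn1 in that comparison ranged from -0.23 (without KE8) to 0.00737 (without JE1). In all alternatives run, Ccn2, Ccn4 and Amotl2 kept their positive sign in the 3 comparisons, as did Ajuba with its small differences (lowest 0.0315). Depth limits Ccn5 and Ankrd1, which had at most 10 counts per library. The label letter overlaps the genotypes only in part. The mutants share no letter, so letter and genotype cannot be told apart by setting them against each other directly. The letter term links them only through wild type, with KE4 as the sole Gpr124-/- embryo in that link. For the M embryos, 3 of the 4 Gpr124-/- libraries, letter and genotype cannot be told apart against wild type.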
